A study of Homo sapiens with 18 samples.

Results

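Cyclic AMP (cAMP) signaling was followed through 38 listed genes in SH-SY5Y cells exposed to cocaine: heterotrimeric G proteins, adenylyl cyclases, phosphodiesterases, the subunits and inhibitors of protein kinase A (PKA), A-kinase anchoring proteins and Rap exchange factors. The genes came from a list chosen with earlier results of these data known. Every probe set that the array annotation gives to them was taken, which made 132 of the 54675 probe sets. In the annotation used, 37 of the 38 genes had a probe set and RAPGEF4 had none. SH-SY5Y cells, a line of human neuroblastoma, become neuron-like when kept in retinoic acid. All groups were differentiated with 10 μM retinoic acid for 7 days, kept without it for 24 h and exposed for 30 min to 0, 1 or 5 μM cocaine, a blocker of monoamine transporters, and the cells were collected at 6 or 24 h after exposure. RNA pools of 3 dishes were hybridized to 18 Affymetrix U133 Plus 2.0 arrays, with 3 arrays per dose and time, so p-values measure the spread between pools of 1 cell line.

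In this pathway, G-protein-coupled receptors act on adenylyl cyclases, stimulatory and inhibitory G proteins turn cyclase activity up or down, and phosphodiesterases break cAMP down. cAMP releases the catalytic subunits of PKA from its regulatory subunits, and anchoring proteins hold PKA at particular sites in the cell. PKA phosphorylates the factor CREB, which binds the cAMP response element TGACGTCA. Dopamine receptors of neurons signal through this pathway.

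The CREB element was searched in the reference promoters because several members lie upstream of CREB. RefSeq windows of 300 bases around transcription starts (GRCh38.p14, from 250 bases before to 50 after) were at hand for 31 of the 38 genes. No entry was given for AKAP8L, PKIA, ADCY6, ADCY8, ADCY9, PDE3B and PDE7A. TGACGTCA, which reads the same on both strands, lay in windows of 2 of the 31 genes (6.45%), against 614 of 27305 genes in the RefSeq table (2.25%), and genes differed in their number of windows. The shorter core TGACG, on either strand and including the cores inside TGACGTCA, lay in 18 of the 31 genes (58.1%) and in 28.4% of all genes. By windows, the members had the full element in 3 of 87 (3.45%) and the core in 28 (32.2%), against 1.85% and 24.6% of 35116 windows. Windows of a gene can overlap, and 2 of the 3 are windows of PRKAR1A that hold the same element. The sequences show both full elements and the cores of RAPGEF2 and GNG4, whose probe sets differed between doses at 6 h. Capitals mark the match and flanks are 10 bases, read along the strand of the gene, with CGTCA the core on the opposite strand. The matches are descriptions of the letters and not of binding.
PRKAR1A, chr17:68512371-68512398, plus strand: cgaggcgcatTGACGTCAgtagccgaac
PDE4A, chr19:10416760-10416787, plus strand: gtcagtccgcTGACGTCAcgccccagga
RAPGEF2, chr4:159229286-159229310, plus strand: tgggtagttcTGACGtacaagaaga
GNG4, chr1:235650602-235650626, minus strand: ccctggtcccCGTCActcagcaacg
The core was also in 3 of the 6 windows of GNAS, and it was in neither of the 2 windows of AKAP13.

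Most of the pathway was measurable. A probe set was tested at a time when its mean over the 9 arrays exceeded log2(40), that is 5.32 on the log2 scale. At 6 h, 88 of the 132 member probe sets passed (66.7%, against 52.4% of all probe sets with a symbol), and at 24 h 91 passed (68.9% against 56.7%). 35 genes had a tested probe set at both times. AKAP6, an anchoring protein of the nuclear envelope of muscle and neurons, reached at most a mean of 4.28 at 6 h and 4.84 at 24 h on any of its probe sets. ADCY8, a calcium-stimulated cyclase, reached 3.96 and 4.39. Nearest to the threshold at 6 h were AKAP7 211172_x_at at 5.44 and AKAP8L 227691_at at 5.12, and at 24 h PDE4A 211901_s_at at 5.37 and PRKAR1A 242482_at at 5.29.

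The arrays had medians of 4.96 to 5.01 at 6 h and of 5.30 to 5.35 at 24 h on the log2 scale, and were normalized separately for each time, so signals are compared within a time only. Of the noradrenergic neuroblastoma markers, 7 of 8 with a probe set were above the threshold at both times, with means of 7.56 (HAND2) to 13.08 (ELAVL4) at 6 h. TH, which encodes tyrosine hydroxylase of dopamine synthesis, was below it at 3.50. Of 6 mesenchymal markers, 4 (CD44, COL1A1, FN1 and TWIST1) were above it, and of 3 glial markers none was, with means of 4.01 to 4.63. Untreated arrays 2 and 3 of 6 h stood apart in genes induced by retinoic acid. CYP26A1, an enzyme that breaks down retinoic acid, was at 10.69 and 10.99 there and at 4.95 to 5.61 on the other 7 arrays of 6 h. The difference between 3′ and 5′ probe sets of ACTB was 1.12 and 0.894 on these untreated arrays and 0.493 to 0.724 on the others of 6 h. At 24 h it was 0.926 and 1.03 on arrays 1 and 3 of 5 μM, and 0.420 to 0.686 on the others. Untreated array 3 of 24 h had CYP26A1 at 9.55.

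At 6 h after 5 μM cocaine, probe sets of RAPGEF2, AKAP13 and GNG4 were higher than in untreated cells and a probe set of GNAS was lower. In limma at an adjusted p under 0.10 over all 22455 probe sets tested, 6 of the 88 member probe sets passed (6.82%, 4 genes), of which 5 were higher and 1 lower. The background was 2.98% of all probe sets tested, 1.57% higher and 1.42% lower. The median difference of the members was -0.03 and that of all probe sets tested -0.02 on the log2 scale. The differences of the members ran from -0.32 to 0.68, with 39 above 0 and 49 below. The arrays did not overlap and lay above the untreated ones for 10 member probe sets (11.4%, background 8.09%) and below them for 8 (9.09%, background 13.1%). In bulk RNA, fewer cells of a type and less RNA per cell cannot be told apart.

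**Figure D1:**
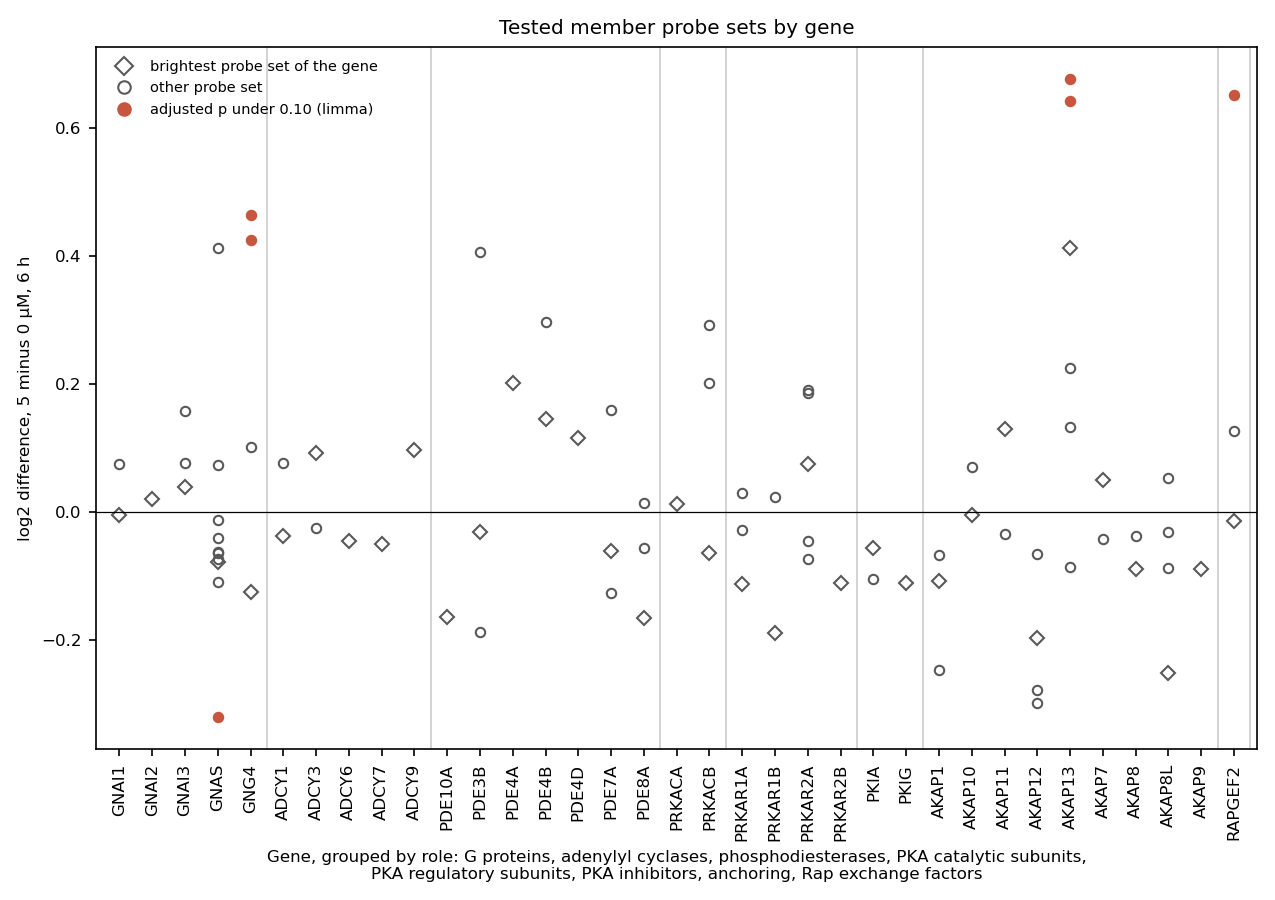
Log2 difference between 5 and 0 μM cocaine at 6 h (vertical axis) for the 88 tested member probe sets, by gene and grouped by role (horizontal axis). Diamonds are the probe set with the highest mean of each gene, circles the others, and the 6 filled symbols passed an adjusted p under 0.10. All 6 are circles, and the cyclases lie between -0.05 and 0.10.

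The replicate numbers paired the arrays, and with the number as a block 16 of the 88 member probe sets passed (18.2%, 9 higher and 7 lower, in 10 genes), against a background of 18.6% of all probe sets, 7.75% higher and 10.9% lower. Unadjusted and without the block, 14 had p under 0.05 (15.9%, background 17.2%). The 6 probe sets were among the 16. Single arrays decided the count without the block. It was 12 without untreated array 1, 1 without untreated array 2, 2 without untreated array 3, 1 without array 1 of 5 μM and 0 without array 2 or array 3 of 5 μM. The counts over all probe sets moved with these, to 10.8% without untreated array 1 and to 0% to 0.387% without any of the other 5 arrays of these doses. RAPGEF2 215992_s_at was the call that was left where 1 was, and with AKAP13 208325_s_at where 2 were. With untreated arrays 2 and 3 both left out, which leaves 1 untreated array whose spread is taken from the other doses, it was 0.

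RAPGEF2, a Rap exchange factor that takes part in cAMP-driven neurite growth, had the smallest adjusted p of the members. Its probe set 215992_s_at was at 5.598, 5.578 and 5.556 on untreated arrays 1, 2 and 3 of 6 h, at 5.86, 5.78 and 5.78 at 1 μM and at 6.12, 6.26 and 6.31 at 5 μM. No array of a higher dose reached down to an array of a lower dose. The difference between 5 and 0 μM was 0.65 (SE 0.0599, 1.57-fold, limma adjusted p = 0.0176). Between 1 and 0 μM it was 0.23 (adjusted p = 0.190, and 0.0756 with the replicate block), and between 5 and 1 μM 0.42 (adjusted p = 0.393). Within the numbers 1, 2 and 3, array by array, the difference between 5 and 0 μM was 0.53, 0.68 and 0.75. The first of these rests on 1 untreated array, and the part of the retinoic acid response in the others was not tested. Without both arrays 2 and 3 of the untreated cells the difference was 0.63 (adjusted p = 0.214). The other tested RAPGEF2 probe sets were at -0.01 (203097_s_at, the brightest) and 0.13 (203096_s_at), with adjusted p of 0.961 and 0.682. The mean signal of 215992_s_at at 6 h was 5.87, near the threshold of 5.32, and that of 203097_s_at was 10.94.

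AKAP13, an anchoring protein of PKA, had 2 of its 6 tested probe sets called. For 208325_s_at, the signals were 6.19, 5.93 and 5.73 in untreated cells, 6.46, 6.43 and 6.47 at 1 μM and 6.64, 6.53 and 6.70 at 5 μM. For 227039_at they were 6.77, 6.32 and 6.49 in untreated cells, 7.02, 7.10 and 7.11 at 1 μM and 7.21, 7.19 and 7.11 at 5 μM. On both probe sets, too, no array of a higher dose reached down to an array of a lower dose, with the nearest arrays of 1 and 5 μM at 7.108 and 7.111 on 227039_at. The differences between 5 and 0 μM were 0.68 (SE 0.107, 1.60-fold, limma adjusted p = 0.0441) and 0.64 (SE 0.103, 1.56-fold, adjusted p = 0.0458). At 1 μM they were 0.51 and 0.55 (adjusted p = 0.159 and 0.145, and 0.0505 and 0.0446 with the replicate block). On both probe sets the untreated arrays spread more than the treated ones. Within the numbers 1, 2 and 3 the difference between 5 and 0 μM was 0.45, 0.61 and 0.98 for 208325_s_at, and it was 0.44, 0.87 and 0.62 for 227039_at. Without untreated arrays 2 and 3 the differences were 0.43 and 0.40 (adjusted p = 0.224 for each), both over 1.5 times smaller. The part of these arrays in the result was not tested further. The brightest AKAP13 probe set, 221718_s_at, also had every treated array above the untreated ones, with 7.98, 7.53 and 7.62 in untreated cells and 8.16, 8.13 and 8.08 at 5 μM. Its difference of 0.41 did not pass (adjusted p = 0.115) and passed with the block (0.0391). The remaining 3 probe sets were at 0.23 (222024_s_at), 0.13 (209534_x_at) and -0.09 (224884_at).

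GNG4, a gamma subunit of heterotrimeric G proteins, had 2 of its 4 tested probe sets called. The untreated arrays of 205184_at had signals of 10.63, 10.47 and 10.51, followed by 10.92, 10.96 and 10.79 at 1 μM and 10.97, 10.96 and 10.95 at 5 μM. On 1555765_a_at the signals were 10.14, 9.92 and 9.99 in untreated cells, 10.40, 10.51 and 10.28 at 1 μM and 10.46, 10.47 and 10.51 at 5 μM. Both doses lay above the untreated arrays without overlap, and the arrays of 1 and 5 μM overlapped each other. The differences between 5 and 0 μM were 0.42 (SE 0.0628, 1.34-fold, limma adjusted p = 0.0413) and 0.46 (SE 0.0772, 1.38-fold, adjusted p = 0.050). At 1 μM they were 0.35 and 0.38 (adjusted p = 0.145 and 0.154, with the block 0.0418 and 0.0511). Within the numbers 1, 2 and 3 the difference between 5 and 0 μM on 205184_at was 0.34, 0.49 and 0.45. Without untreated arrays 2 and 3 both probe sets were at 0.33 and 0.34 (adjusted p = 0.251 and 0.271). The brightest GNG4 probe set, 1555867_at, was at -0.12 (adjusted p = 0.385), and 1566513_a_at was at 0.10.

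GNAS encodes the stimulatory G protein alpha subunit, and its locus makes several other transcripts, some of them imprinted. The signals of 217058_at were 6.25, 6.20 and 6.35 in untreated cells, 6.17, 6.21 and 6.18 at 1 μM and 6.00, 5.94 and 5.89 at 5 μM. All arrays at 5 μM were below all others of 6 h. The difference between 5 and 0 μM was -0.32 (SE 0.0566, 0.80-fold, limma adjusted p = 0.0567), between 5 and 1 μM -0.25 (adjusted p = 0.558) and between 1 and 0 μM -0.08 (adjusted p = 0.571). It was -0.24, -0.26 and -0.46 within the numbers, and -0.30 without untreated arrays 2 and 3 (adjusted p = 0.251). The other 9 tested GNAS probe sets did not pass. The 6 with an x in their names, whose probes can match more than 1 transcript, lay between -0.11 and -0.04. In the opposite direction, 229274_at was at 0.41 (adjusted p = 0.155, with the block 0.0638), with 6.46, 6.73 and 6.35 in untreated cells and 6.73, 7.00 and 7.05 at 5 μM.

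**Figure D2:**
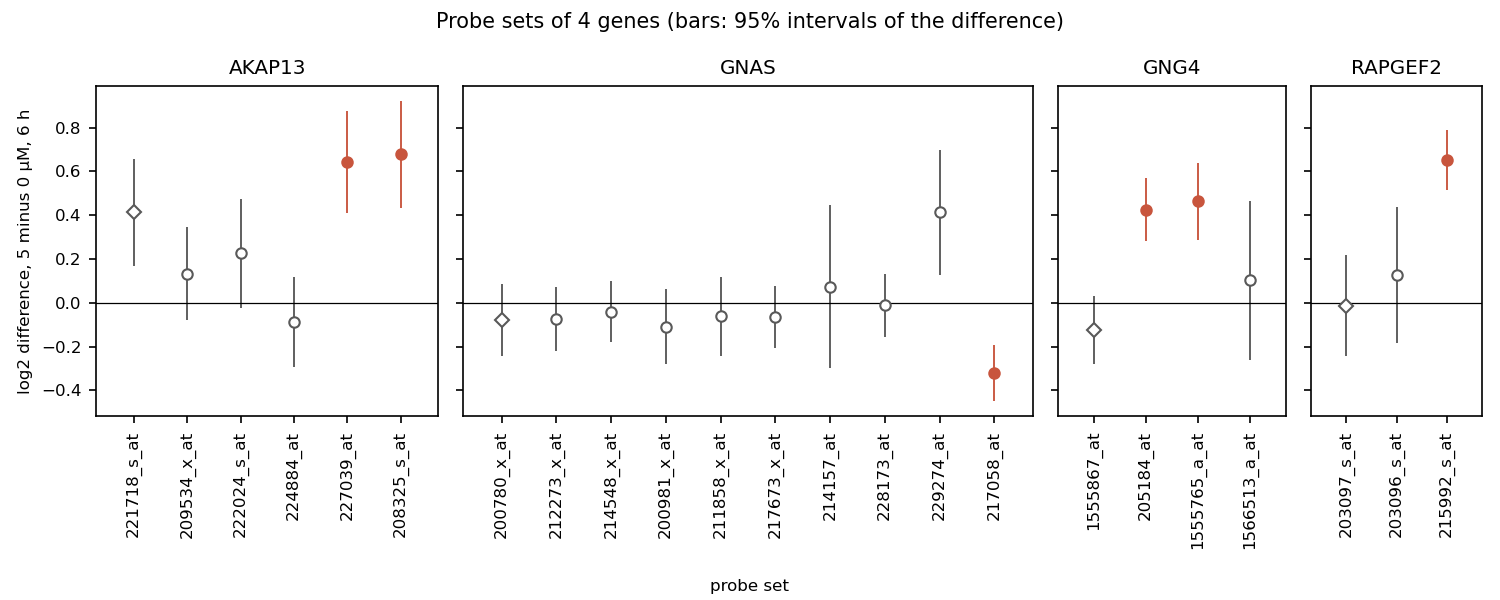
Log2 difference between 5 and 0 μM at 6 h with its 95% interval (vertical axis) for each tested probe set of AKAP13, GNAS, GNG4 and RAPGEF2, ordered from the highest to the lowest mean signal (horizontal axis). Filled symbols passed an adjusted p under 0.10, and diamonds are the brightest probe sets, which lie at 0.41, -0.08, -0.12 and -0.01.

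Probe sets of 1 gene thus differed. None of the 6 called probe sets was the brightest of its gene. Among the 35 brightest member probe sets 0 passed, with a median difference of -0.05, and among the other 53 there were 5 higher and 1 lower, with a median of 0.01. The same split over all genes gave 0.502% higher and 1.58% lower of 11943 brightest probe sets (median -0.03), and 2.93% higher and 1.2% lower of 9491 others (median 0.01). The mean of the other member probe sets minus that of the brightest was -2.03, -2.10 and -2.07 on untreated arrays 1, 2 and 3, -2.04 to -2.003 at 1 μM and -2.0003 to -1.966 at 5 μM on the log2 scale. The 5 μM arrays were the highest in this measure and untreated arrays 2 and 3 the lowest, the arrays of 6 h with the largest ACTB difference. The part of either in the calls was not tested.

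Of the inhibitory G proteins, which lower cyclase activity, GNAI1, GNAI2 and GNAI3 were at 0.00, 0.02 and 0.04 between 5 and 0 μM on their brightest probe sets at 6 h, and none passed. The 95% interval of the difference of GNAI3, whose signals ran from 11.94 to 12.08 over the 9 arrays, was -0.08 to 0.16.

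No adenylyl cyclase probe set passed. The 7 tested probe sets of 5 genes lay between -0.05 and 0.10, with a smallest adjusted p of 0.389. ADCY1, the calmodulin-stimulated cyclase of neurons, ranged from 8.96 to 9.10 over the 9 arrays of 6 h, and its difference of -0.04 had a 95% interval of -0.15 to 0.08. No 95% interval of a cyclase probe set reached farther than 0.307 from 0.

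No phosphodiesterase probe set passed without the block either. The 14 tested probe sets of 7 genes lay between -0.19 and 0.41. The highest was 208591_s_at of PDE3B, a phosphodiesterase that cGMP inhibits, with signals of 5.80, 5.56 and 5.99 in untreated cells, 5.91, 5.99 and 5.99 at 1 μM and 6.00, 6.26 and 6.32 at 5 μM. Its arrays at 5 μM were just above all untreated ones, and the difference of 0.41 had an adjusted p of 0.141 (0.0515 with the block). The brightest PDE3B probe set, 214582_at, was at -0.03. Of the cAMP-specific PDE4 enzymes, PDE4A was at 0.20, PDE4B at 0.14 and PDE4D at 0.12 on their brightest probe sets, with 95% intervals that included 0. PDE4B had the widest of these, from -0.48 to 0.77. PDE10A, the enzyme of striatal neurons that breaks down cAMP and cGMP, was at -0.16, PDE8A at -0.17 and PDE7A at -0.06, and none passed.

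The PKA holoenzyme had no probe set called without the block. The catalytic subunits PRKACA and PRKACB were at 0.01 and -0.06 on their brightest probe sets, and the 4 catalytic probe sets lay between -0.06 and 0.29. With the block, 18.6% of all probe sets passed. Of the 11 probe sets of regulatory subunits, which lay between -0.19 and 0.19, 2 passed with the block only, in opposite directions. These were 204842_x_at of PRKAR2A, at 0.19 (adjusted p = 0.167, with the block 0.0496), and 212559_at of PRKAR1B, at -0.19 (0.238 and 0.0767). On both, the 5 μM arrays did not overlap the untreated ones (background 8.09% above and 13.1% below). PRKAR1A, which has the full element in some of its start windows, was at -0.11 on its brightest probe set, with a 95% interval of -0.24 to 0.02. The inhibitors PKIA and PKIG, small proteins that block the catalytic subunit, had 3 probe sets between -0.11 and -0.06.

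Among the anchoring proteins, 26 probe sets of 9 genes were tested, with a median of -0.04. With the block, 7.75% of all probe sets passed as higher and 10.9% as lower. Beside AKAP13, with 3 higher probe sets under the block, 5 of the 26 passed with the block only, all lower at 5 μM. AKAP12, a scaffold for PKA and protein kinase C, gave 3 of them. Its probe set 210517_s_at was at 10.96, 11.43 and 11.58 on untreated arrays 1, 2 and 3 of 6 h, and at 10.88, 11.13 and 11.37 at 5 μM. On all 3 probe sets the array numbered 1 was the lowest and that numbered 3 the highest at every dose, so that the doses overlapped while each treated array was below its untreated partner. Within the numbers 1, 2 and 3 the difference between 5 and 0 μM was -0.08, -0.30 and -0.21 for 210517_s_at, -0.13, -0.35 and -0.35 for 227530_at, and -0.10, -0.41 and -0.39 for 227529_s_at. The means were -0.20, -0.28 and -0.30, with adjusted p of 0.646, 0.604 and 0.558 in limma without the block, and 0.0633, 0.0398 and 0.0456 with it. The smallest differences were those of number 1, whose untreated array did not have the high CYP26A1, and the part of the retinoic acid response in the others was not tested. The fourth tested AKAP12 probe set, 231067_s_at, was at -0.07. The others were 210625_s_at of AKAP1, which holds PKA at mitochondria, at -0.25 (adjusted p = 0.199, with the block 0.0541), and 218064_s_at of AKAP8L, a nuclear protein, at -0.25 (0.193 and 0.0478). Both had all 5 μM arrays below the untreated ones. AKAP9, which anchors PKA at the centrosome and Golgi apparatus, was at -0.09, AKAP10 at 0.00 and AKAP11 at 0.13 on their brightest probe sets.

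**Figure D3:**
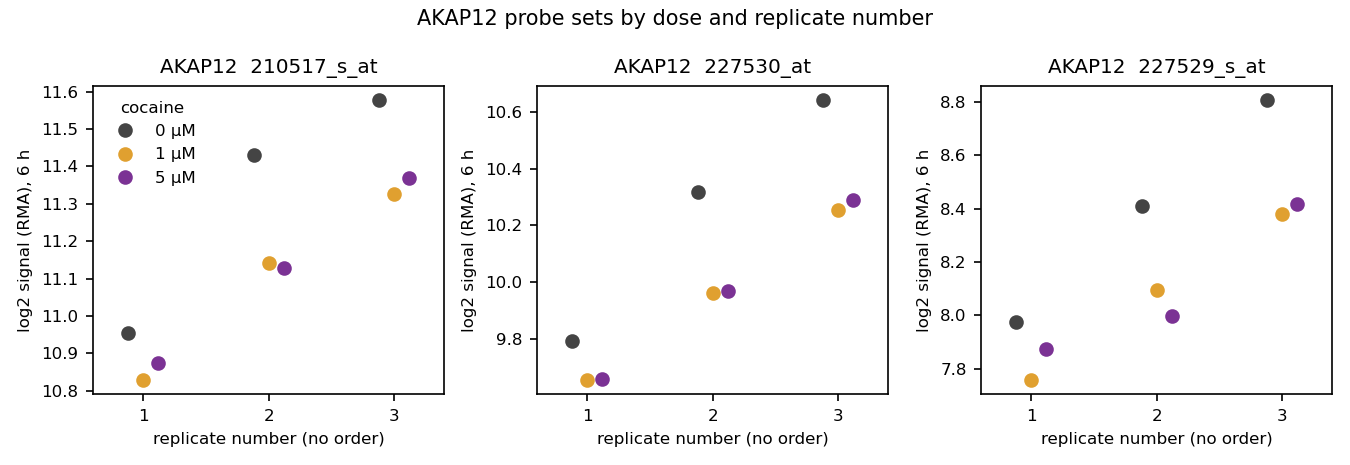
Log2 signal (vertical axis) of the 3 AKAP12 probe sets called with the replicate block on the 9 arrays of 6 h, by replicate number (horizontal axis, points of a number set side by side) and dose (colour). In each number the untreated array is the highest, and the numbers differ more than the doses.

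After 1 μM cocaine at 6 h, 0 of the 88 member probe sets passed, with a background of 0% over all probe sets. Unadjusted, 11 had p under 0.05 (12.5%, background 14.3%). With the replicate block 14 passed (15.9%, 8 higher and 6 lower, background 12.5%, with 5.11% higher and 7.44% lower). Without untreated array 1, 7 passed without the block (7.95%, background 4.28%), of AKAP13 and GNG4. Besides the probe sets described above, those passing with the block included PRKACB 235780_at at 0.41 (adjusted p with the block 0.0944), RAPGEF2 203096_s_at at 0.29 (0.0990), PDE3B 222317_at at -0.26 (0.0901) and PRKAR2B 203680_at at -0.17 (0.0917). Between 5 and 1 μM, 0 passed in limma with or without the block (background 0%), and 6 had an unadjusted p under 0.05 (6.82%, background 6.45%). The comparisons with 0 μM share the untreated arrays.

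At 24 h no member probe set passed in any pair of doses, with or without the block. Between 5 and 0 μM the background was 0.0123% of 24307 probe sets, and 0.00823% with the block. 7 member probe sets had an unadjusted p under 0.05 (7.69%, background 7.20%), and the median difference was 0.03 against 0.00 over all. Arrays 1 and 3 of 5 μM had the largest ACTB differences of 24 h, and their part in the results was not tested. The arrays at 5 μM lay above the untreated ones without overlap for 14 of 91 (15.4%, background 5.94%) and below for 4 (4.40%, background 4.51%). Those above included 3 cyclase probe sets, of ADCY3 (209321_s_at, 0.27), ADCY9 (204497_at, 0.16) and ADCY6 (209195_s_at, 0.15), with adjusted p of 0.690 to 0.799 in limma. The nearest untreated and 5 μM arrays were at 7.734 and 7.737 for ADCY9 and at 8.370 and 8.371 for ADCY6. The brightest ADCY3 probe set, 209320_at, was at 0.01 and overlapped. Between 1 and 0 μM (background 0%), 3 had an unadjusted p under 0.05 (3.30%, background 3.37%), and between 5 and 1 μM (background 0.00823%, with the block 0.00411%), 10 had (11.0%, background 6.12%).

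GNG4 was the member with the smallest adjusted p at 24 h, in the direction opposite to that of 6 h. Its probe set 205184_at was at 11.36, 11.38 and 11.39 on the untreated arrays of 24 h, 11.37, 11.30 and 11.29 at 1 μM and 11.17, 11.00 and 11.08 at 5 μM. On 1555765_a_at the signals were 10.88, 10.80 and 10.92, then 10.93, 10.80 and 10.80, and 10.59, 10.46 and 10.55 at 5 μM. All arrays at 5 μM were below all other arrays of 24 h on both. The differences between 5 and 0 μM were -0.29 and -0.33, each with an adjusted p of 0.379. Fitted in limma with all 18 arrays, 205184_at alone of the members passed, at an adjusted p of 0.0946, with a background of 0.177% of all probe sets.

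The changes between 5 and 0 μM at the 2 times were set against each other in 1 fit over all 18 arrays. Of 88 member probe sets tested at both times 5 passed (5.68%), all with a higher change at 6 h, against a background of 4.21% of 22358 probe sets, 1.97% higher and 2.24% lower. With the replicate block 14 passed (15.9%, 6 higher and 8 lower, background 15.9%, with 6.44% higher and 9.46% lower). The 8 lower were probe sets of ADCY1, AKAP1, AKAP12, GNAS, GNG4 and PRKAR1B. Among them, the brightest ADCY1 probe set, 213245_at, had -0.39 (adjusted p with the block 0.0314), from -0.04 at 6 h and 0.35 at 24 h. Without the block, 2 GNG4 probe sets had differences between the times of 0.72 (205184_at, limma adjusted p = 0.00165) and 0.79 (1555765_a_at, adjusted p = 0.00172). They passed in all 30 alternatives that tested them at the threshold of 0.10, each array left out in turn included. Taking 1 probe set per gene tests GNG4 by its brightest probe set instead, and no member passed there (background 2.79%). Without untreated arrays 2 and 3 of 6 h, the differences of 205184_at and 1555765_a_at were 0.62 and 0.67. RAPGEF2 215992_s_at had 0.90 (adjusted p = 0.0142), from 0.65 at 6 h and -0.24 at 24 h. AKAP13 227039_at had 0.71 (adjusted p = 0.0163) and 208325_s_at 0.82 (0.0920), with -0.07 and -0.15 at 24 h. The call of 208325_s_at was lost in 20 of 30 alternatives, 15 of the 18 with a single array left out among them. At 24 h the arrays of RAPGEF2 and AKAP13 overlapped between doses. Without untreated arrays 2 and 3 of 6 h, these 3 no longer passed, at 0.88, 0.47 and 0.58 (adjusted p = 0.105, 0.133 and 0.432). The brightest GNG4 probe set, 1555867_at, was at -0.12 at 6 h and 0.08 at 24 h. Its difference between the times of -0.20 passed in limma with the replicate block (adjusted p = 0.0414), in the direction opposite to the other 2.

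**Figure D4:**
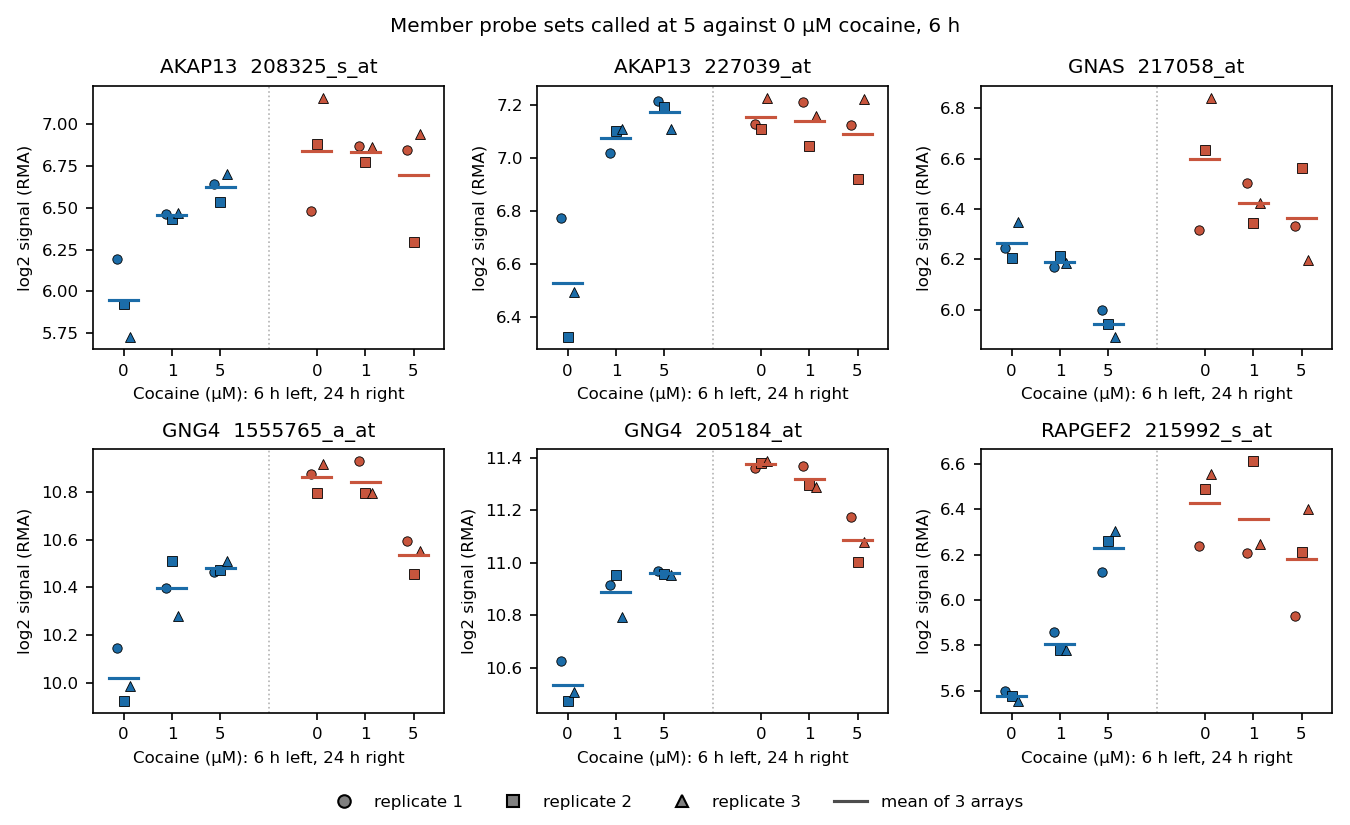
Log2 signal (vertical axis) of the 6 member probe sets called between 5 and 0 μM at 6 h, on all 18 arrays by dose, with 6 h (blue) to the left and 24 h (red) to the right of the dotted line in each panel. Symbols are replicate numbers and bars the means of 3 arrays, and signals are comparable within a time only. GNG4 lies higher at 5 μM than at 0 μM at 6 h and lower at 24 h.

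**Figure D5:**
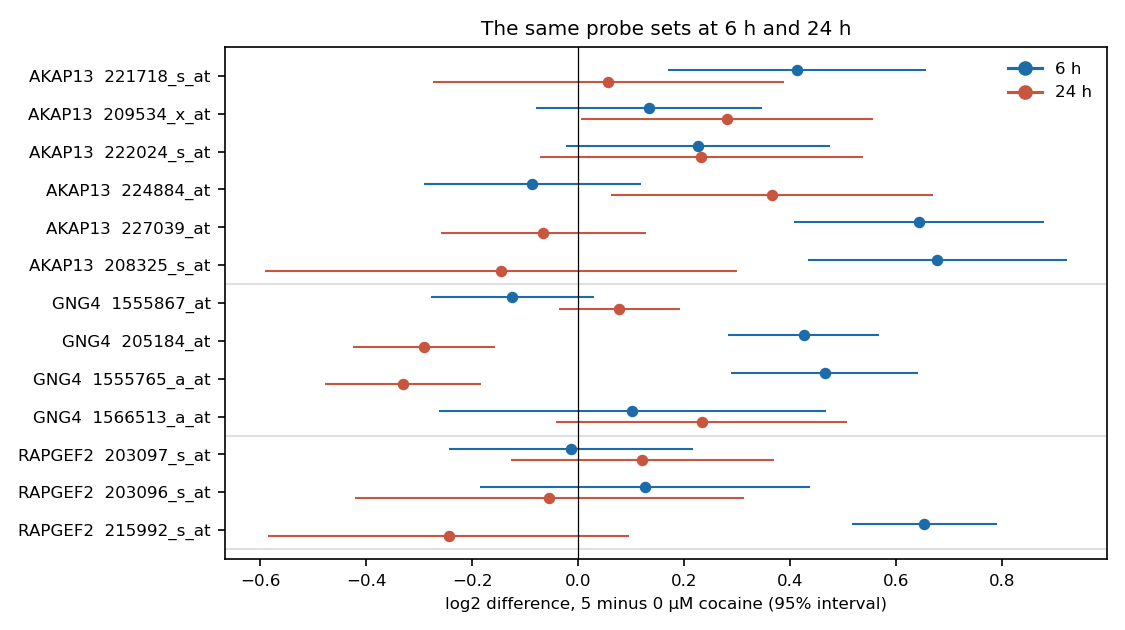
Log2 difference between 5 and 0 μM with its 95% interval (horizontal axis) for each tested probe set of AKAP13, GNG4 and RAPGEF2 (vertical axis), at 6 h in blue and 24 h in red. The intervals of the GNG4 probe sets 205184_at and 1555765_a_at lie on opposite sides of 0 at the 2 times, before adjustment over all probe sets.

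Of 74 other genes of the pathway, 67 had a probe set and 45 were tested at 6 h, with 80 probe sets and a median difference of -0.04. This list, too, was chosen with earlier results of these data known. Between 5 and 0 μM, 3 of the 45 genes had a higher probe set and 0 a lower one, against 2.59% and 2.47% of the 11943 genes tested, which differ in their number of probe sets. With the block 5 had a higher and 8 a lower one, against 12% and 17.7% of all genes. The 3 were GNB5, a G protein beta subunit that pairs with RGS proteins (211871_x_at, 0.47, limma adjusted p = 0.0977), ACBD3, a Golgi protein that binds PKA (202323_s_at, 0.42, 0.0610), and EZR, or ezrin, which anchors PKA and links actin to the membrane (217234_s_at, 0.42, 0.0999). The other tested GNB5 probe sets were at -0.004 (204000_at, the brightest) and 0.20 (207124_s_at), with limma adjusted p of 0.990 and 0.476. For ACBD3 the signals were 8.35, 8.42 and 8.40 in untreated cells and 8.83, 8.72 and 8.86 at 5 μM, without overlap, while its other probe set 202324_s_at was at -0.16. EZR also had probe sets on both sides, with 208621_s_at at 0.44 (adjusted p = 0.152), 208622_s_at at -0.15 and its brightest, 208623_s_at, at -0.19 (adjusted p = 0.313), and it counts as both higher and lower with the block. All 3 calls were lost without untreated array 2, without untreated array 3 and without any single array of 5 μM. Without untreated array 1 there were 12 genes, where 10.8% of all probe sets passed. Without any single array of 1 μM there was 1, where 1.04% to 2.77% of all probe sets passed. Of the genes that cAMP and CREB are known to induce, 12 were tested, FOS, NR4A1 and CREM among them, and none passed. With the block 1 gene passed, CREM, which encodes activators and repressors that bind cAMP response elements, lower by 230511_at at -0.35 (adjusted p = 0.247, with the block 0.0416). The other 4 CREM probe sets lay between -0.25 and -0.11 and did not pass. FOS was at 0.00 (209189_at) and VIP, a neuropeptide gene with a cAMP response element, at -0.02 (206577_at). Their untreated arrays spanned 6.34 to 7.95 and 10.96 to 11.74.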

How the data were processed

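RMA in affy was run by the authors to give the deposited log2 values (background correction, normalization, median polish), separately for 6 and 24 h; versions are not given in the sources used here. Labels of the 5 μM arrays also carry control wording, and their stated dose was used. Probe sets were named from the array annotation with current RefSeq symbols (GRCh38.p14; 41037 with 1 symbol matched, 1801 with several symbols unnamed), and controls were left out. The study's methods state limma, a signal threshold of log2(40) and that probes of no known gene were dropped. Taking each time's 9-array mean for this threshold was a choice made here. Probe sets with a mean above it and a symbol were compared with limma 3.58.1 (lmFit, eBayes, R 4.3.3) with the 9 arrays per time in 1 fit and Benjamini-Hochberg adjustment over all probe sets tested, and an adjusted p under 0.10 was the threshold. The change at 6 h against 24 h was a contrast over 18 arrays. The adjusted p with the block comes from the same fit with the replicate number added.

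The members and lists were chosen with earlier results of these data known. Every member may be named, with full values for probe sets called in any of 7 comparisons and the brightest probe set, that with the highest mean, for the rest, and other pathway genes where called at 5 against 0 μM and 6 h. FOS, VIP, NR4A1, CREM and probe sets passing only with the block were added with their values in view.

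The labels give each dose the replicate numbers 1 to 3. Deviations from group means correlated at 0.377 to 0.768 between arrays of the same number at 6 h and 0.424 to 0.733 at 24 h (9 pairs each), and at -0.632 to 0.0711 and -0.575 to 0.165 between different numbers (18 pairs each), so the numbers were taken to pair the arrays. No arrays were duplicates (153 pairs, each differing in at least 51410 probe sets). Precision is limited by the number of arrays. The fits were tested on simulated data. Alternatives were the block, no or a higher signal filter, keeping probe sets with no symbol, 6 or 18 arrays, quantile normalization, median centring, array weights, an intensity trend, a threshold of 0.05, 1 probe set per gene and arrays left out. Figures were drawn with matplotlib 3.10.9 in Python 3.11.15.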

Additional observations from a re-analysis of the deposited data

Results flagged for a closer look

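For 8 of the 88 member probe sets tested at both times, the difference between 5 and 0 μM cocaine at 6 h departed from that at 24 h, either in the test of the difference (5 probe sets) or because the 5 μM arrays lay on opposite sides of the untreated ones at the 2 times without overlap (5 probe sets or 5.68%, against 2.61% of the 22358 probe sets tested at both times; 2 of the 5 also passed the test). By the test in limma, the change at 6 h exceeded that at 24 h by 0.79 (GNG4 1555765_a_at), 0.72 (GNG4 205184_at), 0.82 (AKAP13 208325_s_at), 0.71 (AKAP13 227039_at) and 0.90 (RAPGEF2 215992_s_at) on the log2 scale. Both GNG4 probe sets were also without overlap and opposite. Opposite without overlap, and not past the threshold, were AKAP1 210625_s_at, with -0.25 at 6 h and 0.16 at 24 h (a difference of -0.41, adjusted p = 0.140), PRKAR1B 212559_at, with -0.19 and 0.11 (-0.30, 0.118), and PDE7A 230444_at, with -0.13 and 0.13 (-0.25, 0.291).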

How the results depend on the processing

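The 11 values of named probe sets kept their direction in all 285 values under alternatives and their side of the threshold in 215. The 11 were taken because they passed. Several alternatives, such as the block, the signal filters and the intensity trend, leave the difference itself unchanged, so the direction could not turn there. At 5 against 0 μM and 6 h, the count of 6 member probe sets became 16 with the replicate block, 16 with array weights, 3 with the 6 arrays of the compared doses and 0 with 1 probe set per gene, which tests the brightest alone. The shares over all probe sets were 18.6%, 14.7%, 0.583% and 1% there, against 2.98%. It was 0 without untreated arrays 2 and 3, and 0 to 12 with each array left out in turn. In an alternative chosen after seeing the data, the block without all arrays of 6 h numbered 1, 2 or 3 gave 31, 0 and 0 (28.4%, 0% and 0.0356% over all probe sets). The count of 3 other pathway genes became 12 with the block, 11 with array weights, 1 with 6 arrays, 0 at 0.05, 0 with 1 probe set per gene, 0 without untreated arrays 2 and 3, and 0 to 12 with each array left out. Beside these gene counts, the shares over all probe sets were 18.6% with the block, 14.7% with array weights and 0.583% with 6 arrays. They were 0.463% at 0.05, 1% with 1 probe set per gene and 0% to 10.8% with each array left out. At 1 against 0 μM and 6 h, the count of 0 became 14 with the block, 3 with all 18 arrays, 6 with array weights, 0 to 7 with each array left out, and 19 with the block and without the arrays numbered 1 (12.5%, 2.41%, 4.49%, 0% to 4.28% and 15.1% over all probe sets). At 5 against 1 μM and 6 h it became 1 with array weights (RAPGEF2 215992_s_at, with 0.00891% over all probe sets). At 5 against 0 μM and 24 h it became 1 with all 18 arrays (GNG4 205184_at, with 0.177% over all probe sets). For 6 h against 24 h, the count of 5 became 14 with the block, 0 with 1 probe set per gene, 2 without untreated arrays 2 and 3 of 6 h, and 24 with the block and without the arrays of 6 h numbered 1, and it was 4 to 7 with each array left out. Over all probe sets these were 15.9%, 2.79%, 1.48% and 18.7%, against 4.21%. In this comparison AKAP13 208325_s_at passed without untreated array 1 of 6 h, untreated array 1 of 24 h or array 3 of 5 μM at 24 h, and did not with any other array left out. The causes of the other changes were not tested.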
